A study of Mus musculus with 2 samples.

Results

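The members described here are 10 genes of cell cycle exit in heart: the D-type cyclins Ccnd1, Ccnd2 and Ccnd3, their kinase Cdk4, the kinase inhibitors Cdkn1a and Cdkn1b, the pocket proteins Rb1 and Rbl2, the homeodomain factor Meis1 and the proliferation marker Mki67. They were chosen by name, with earlier results of these data known. All 10 were found by symbol and gene identifier among the 55536 annotated genes of the deposited tables. The series is total RNA sequencing of heart tissue from male 5xFAD x CAST mice of 8 to 10 months. 5xFAD mice carry transgenes driven by neuronal Thy1 elements, and CAST names the other parental strain in the labels. The labels give 1 group of 2 libraries, numbered as biological replicates 1 and 2 from separate biosamples under the same donor identifier, so the group has no other group to be set against here and no test between conditions was made. The spread between the libraries may be technical or biological.

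In a cycling cell, D-type cyclins bind Cdk4 or Cdk6 and the kinase phosphorylates the pocket proteins, which then release E2F factors and let S phase genes be transcribed. Cdkn1a (p21) and Cdkn1b (p27) bind cyclin and kinase complexes and hold Cdk2 in check, while Rbl2 (p130), E2F4 and the MuvB core form the DREAM complex that represses cell cycle genes in resting cells. Mouse cardiomyocytes leave the cycle soon after birth, and in mice Meis1 is known as a factor of that exit that acts upstream of Cdkn1a.

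Each library was made from 300 ng of RNA and held 39668202 expected counts in library 1 and 36926511 in library 2 over annotated genes. The counts of the libraries differed beyond sampling noise (chi-square over degrees of freedom 5.35, from 17147 genes). Tissue identity fitted the label: all 6 cardiomyocyte markers were detected, led by the myosin heavy chain Myh6 with 6620 TPM in library 1 and 6911 TPM in library 2. TPM is a level divided by transcript length and scaled to a fixed total per library. All 5 atrial markers (summed 1169 TPM in library 1 and 1559 TPM in library 2) and all 6 adipocyte markers (summed 10.6 TPM in library 1 and 39.4 TPM in library 2) were higher in library 2, and none of them was at 0. In bulk tissue, fewer cells of a type and less RNA per cell cannot be told apart, and no value below says which cells of the heart held a member's RNA.

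Of the 10 members, 9 were detected, meaning at least 1 TPM in both libraries, against 48.9% of 22028 protein-coding genes. The exception was Mki67. Since the members were chosen with earlier results of these data known, the contrast with all genes is a description. The order by mean TPM was Ccnd2, Cdk4, Ccnd3, Ccnd1, Rbl2, Cdkn1b, Meis1, Rb1, Cdkn1a and Mki67. The ranges of neighbours in that order did not overlap between the libraries, although the highest value of Ccnd3 was 23.75 TPM and the lowest of Cdk4 23.85 TPM. In a second quantification deposited for the same libraries, Ccnd3 stood above Cdk4 with overlapping ranges, and Meis1 and Rb1 overlapped too.

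**Figure D1:**
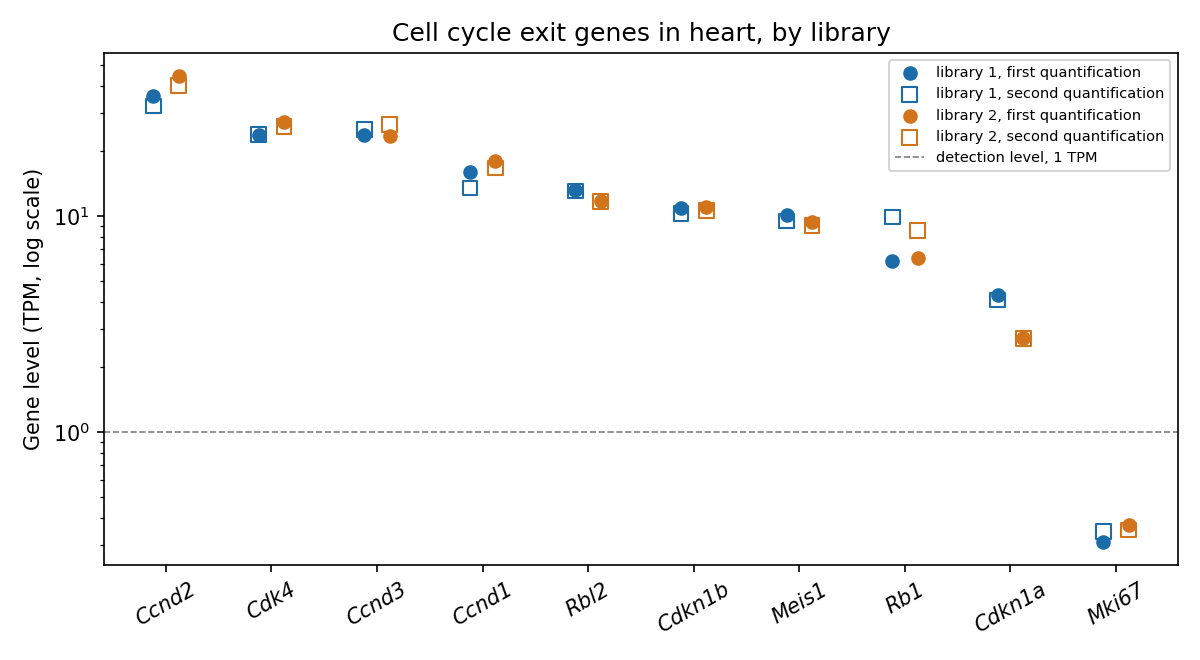
Level of each member in library 1 and library 2 (TPM, log axis), with filled circles for the first quantification and open squares for the second. Mki67 lies below 1 TPM in both libraries, and Rb1 is the member whose squares lie farthest from its circles, at 9.89 and 8.59 TPM against 6.20 and 6.39 TPM.

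The D cyclins were among the more abundant members. Ccnd2 had 35.9 TPM in library 1 and 44.4 TPM in library 2, a mean of 40.15 ± 6.02 TPM (SD, n = 2), at the percentile 92.8 of protein-coding genes with a mean TPM above 0. Ccnd3 had 23.75 TPM in library 1 and 23.58 TPM in library 2, the closest pair among the D cyclins, at the percentile 87.4. Ccnd1 had 15.96 TPM in library 1 and 18 TPM in library 2, at the percentile 82.6. Library 2 was thus the higher one for Ccnd1 and Ccnd2. For Ccnd3 the order of the libraries depended on the reading, with 25.3 TPM in library 1 and 26.5 TPM in library 2 in the second quantification. The gene TPM ranges of the 3 genes did not overlap.

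In their summed TPM, Ccnd2 made up 49.6% ± 2.95, Ccnd3 29.4% ± 2.82 and Ccnd1 21.02% ± 0.126 (SD, n = 2). The order depends on how length is treated. By expected counts, with no division by length, Ccnd2 held 61.2%, Ccnd1 21.6% and Ccnd3 17.2%, so that Ccnd1 passed Ccnd3. When all counts of a gene were divided by the length of 1 full-length coding transcript, a calculation chosen after seeing the data, Ccnd2 held 39.5%, Ccnd3 36.7% and Ccnd1 23.8%. Ccnd2 was the first of the 3 under each of these.

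The transcripts behind Ccnd2 show where the length enters. Ccnd2 lies at chr6:127125162-127152193 on the minus strand (mm10, as all coordinates here), and its longest coding transcript, Ccnd2-201 of 6330 bases, held 93.9% of the gene's counts and 55.7% ± 4.45 of its TPM. The coding transcript Ccnd2-206, of 627 bases, held 32.3% ± 2.84 of the TPM (SD, n = 2). Over the length of Ccnd2-201, all counts of the gene gave 22.4 TPM in library 1 and 25.01 TPM in library 2, so that the mean gene TPM was 1.69 times this level.

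The 3 cyclin genes are similar in sequence. The longest identical run between each pair of coding sequences is shown because it is the longest stretch over which the pair cannot be told apart. Capitals mark the identical bases, all of them in each run. The coding sequences of Ccnd1-201 and Ccnd2-201 were identical at 72.4% of aligned bases and shared a run of 20 bases from base 133 of Ccnd1 and base 127 of Ccnd2. Ccnd1 and Ccnd3 (68.8%) shared 17 bases, and Ccnd2 and Ccnd3 (70.7%) shared 14 bases that begin at the start codon.
Ccnd1 and Ccnd2: TTCAAGTGCGTGCAGAAGGA
Ccnd1 and Ccnd3: GCCTGCCAGGAACAGAT
Ccnd2 and Ccnd3: ATGGAGCTGCTGTG

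The expected counts of all 3 cyclins were whole numbers, within 0.005, in both libraries, as were those of every other member but Meis1. A count split between genes would leave a fraction. Meis1, with 793.99 expected counts in library 1 and 663.23 in library 2, shares 1029 exon bases with Gm37818 on the same strand. On the other strand, Ccnd1 shares 1100 exon bases with LTO1 (5.80 TPM in library 1, 5.84 TPM in library 2). Ccnd3 likewise shares 361 with Bysl (5.39 TPM in library 1, 4.89 TPM in library 2). Ccnd2 shares 372 with Gm43126, at 0 TPM in both libraries, and 368 with 9330179D12Rik, at 0.19 and 0.27 TPM.

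Ccnd3 (chr17:47505051-47599691, plus strand) has 21 annotated transcripts and 2 start sites in the RefSeq promoter table. The downstream start, at 47593467, was that of transcripts holding 81.9% ± 6.45 of the gene's TPM, and the upstream start, at 47505051, of transcripts holding 7.92% ± 3.10 (SD, n = 2). The leading transcript Ccnd3-205 held 80.5% by the first quantification and 65.1% by the second, and it led in both libraries of each.

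Cdk4, the kinase that D cyclins activate, had 23.85 TPM in library 1 and 27.37 TPM in library 2, at the percentile 88.3. The summed D cyclins were 3.16 ± 0.0198 times Cdk4 in TPM (SD, n = 2). Cdk4 stood close to Ccnd3 in TPM but on fewer reads, with 541 expected counts in library 1 and 565 in library 2, against 1362 and 1291 for Ccnd3. A gene's TPM is the sum over its transcripts, each divided by its own length, and for Cdk4 short transcripts made up most of it.

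Transcripts annotated as protein-coding held 36.3% of Cdk4 TPM in library 1 and 21.4% in library 2. The median detected protein-coding gene had 93.2% in coding transcripts, and 7.3% of 10767 such genes had less than 50%, a limit chosen after seeing the data. Meis1 was the other member under 50%, with 31.3% in library 1 and 24.0% in library 2. In the second quantification the means were 30.01% for Cdk4 and 39.95% for Meis1, and 8.89% of genes fell under the limit. For Cdkn1a, Cdkn1b and Mki67 the coding share was 100% in both libraries.

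**Figure D2:**
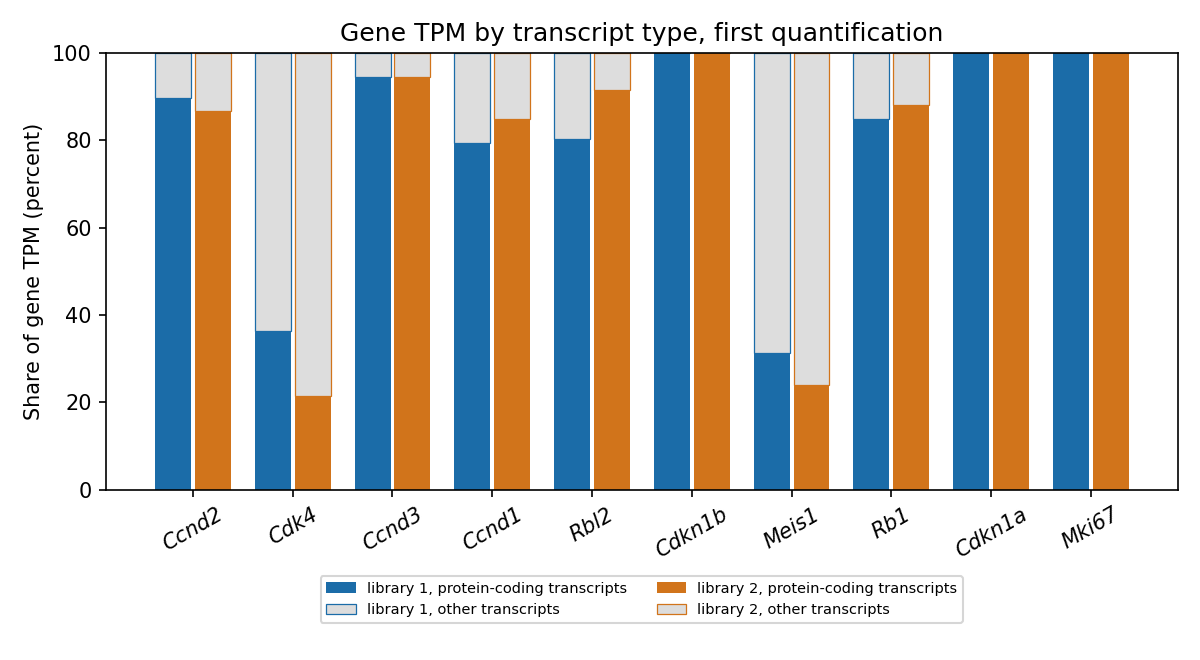
Share of each member's TPM (percent) held by protein-coding transcripts (solid, bottom) and by other transcripts (grey, top), library 1 left of library 2. Cdk4 and Meis1 are the members whose solid bars stay below 50% in both libraries.

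The leading Cdk4 entry, Cdk4-209, is annotated as a retained intron of 468 bases at chr10:127066076-127067235, and it held 38.9% ± 6.12 of Cdk4 TPM (SD, n = 2) and led in both libraries of both quantifications. Of its 468 bases, 443 lie in coding Cdk4 transcripts, and 25 at its 5′ end do not. For Meis1 the leading entry of the first quantification, Meis1-203, is a processed transcript of 2008 bases, of which 27 at the 5′ end lie in no coding transcript, and it held 44.2% ± 3.12 of Meis1 TPM. The start of each entry is printed because it holds all the bases of the entry that lie in no coding transcript. Capitals mark those bases, and lower case the 25 bases that follow, from the reference transcripts. The Cdk4 stretch is chr10:127066076-127066125, plus strand. The Meis1 stretch runs over an intron, within chr11:19011364-19012002, minus strand.
Cdk4-209: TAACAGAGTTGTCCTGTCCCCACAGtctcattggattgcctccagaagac
Meis1-203: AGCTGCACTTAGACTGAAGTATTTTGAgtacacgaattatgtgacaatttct

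Of the entries of these genes with over 10% of the gene's TPM, the remaining 3 that are not coding had still fewer such bases. Cdk4-208, annotated for nonsense-mediated decay, held 14.8% of Cdk4 TPM with 0 of its 924 bases outside coding transcripts, and the retained intron Cdk4-206 held 15.1% with 16 of 574. Meis1-207, also annotated for nonsense-mediated decay, held 19.7% of Meis1 TPM with 0 of 1530 bases outside. How the estimators divided reads among such entries was not tested. Cdk4 also shares 641 exon bases with Tspan31 on the other strand, which had 15.45 TPM in library 1 and 16.93 TPM in library 2. None of them falls on Cdk4-209. The expected counts of Cdk4 were whole numbers in both libraries, as given above, so none was seen to be split with Tspan31. Whether the counting used strand is not given in the sources used here.

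Cdk4 was lower than its gene TPM when length was treated differently. Its coding transcripts alone had 8.65 TPM in library 1 and 5.87 TPM in library 2. All its counts over the 2053 bases of Cdk4-201 gave 8.35 TPM in library 1 and 9.27 TPM in library 2. Under these readings Cdk4 stood sixth among the members, behind Cdkn1b and Rbl2, and by gene TPM it stood second. The summed D cyclins stood at 10.4 ± 3.67 times Cdk4 by coding transcripts and 6.81 times by counts over 1 length.

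**Figure D3:**
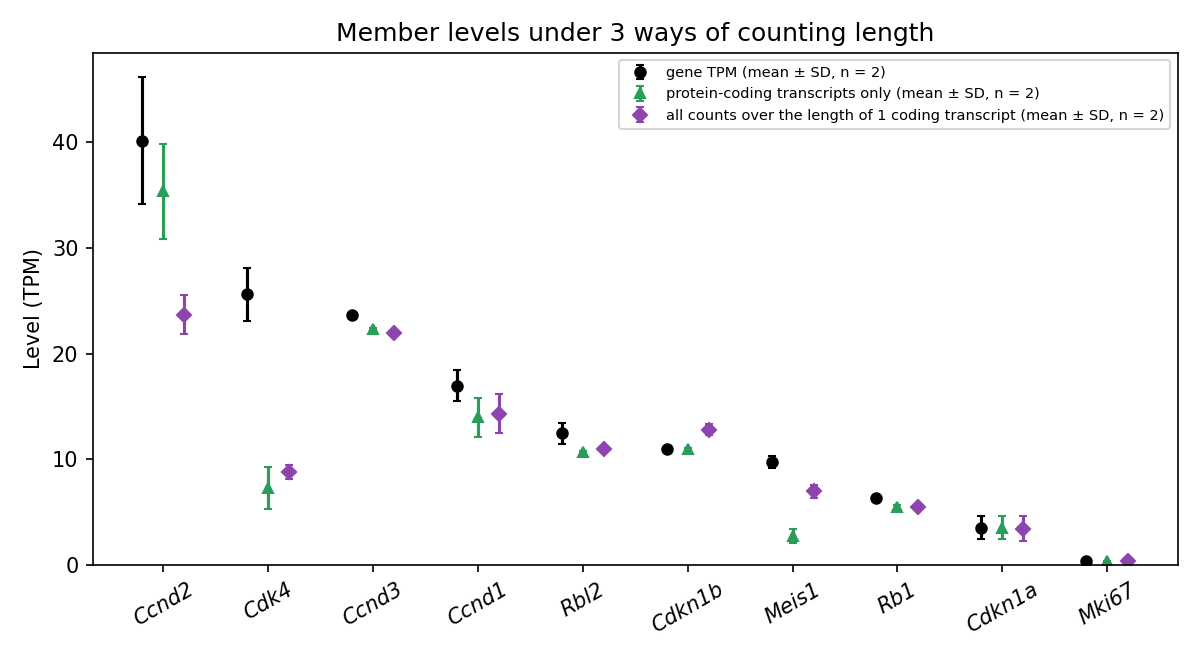
Level of each member (TPM, mean ± SD of 2 libraries) by gene TPM (circles), by coding transcripts alone (triangles) and by all counts over the length of 1 full-length coding transcript (diamonds). Cdk4 lies at 7.26 TPM (triangle) and 8.81 TPM (diamond) and at 25.6 TPM by gene TPM, Ccnd2 has its lowest value at 23.7 TPM, and Mki67 is near 0 in each.

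The inhibitor Cdkn1b had 10.87 TPM in library 1 and 11.05 TPM in library 2, a mean of 10.96 ± 0.127 TPM (SD, n = 2), at the percentile 74.8. Cdkn1a had 4.29 TPM in library 1 and 2.73 TPM in library 2, at the percentile 50.9. Cdkn1b was the higher of the pair in both libraries, without overlap, by 2.53 times in library 1 and 4.05 times in library 2. The gap between these ratios comes with Cdkn1a, which had 257 expected counts in library 1 (exact Poisson 95% interval 226.5 to 290.4) and 147 in library 2 (124.2 to 172.8). These and all other intervals cover counting error only.

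Cdkn1a (chr17:29090976-29100727, plus strand) has 2 start sites in the promoter table. Transcripts from the downstream start, at 29093769, had 4.22 TPM in library 1 and 2.47 TPM in library 2, and held 94.4% ± 5.58 of the gene's TPM. Those from the upstream start, at 29090979, had 0 TPM in library 1 and 0.20 TPM in library 2, on 5.08 expected counts in all, or 3.66% of the gene's TPM. In the second quantification they had 0.0649 TPM in library 1 and 0.537 TPM in library 2, on 15.6 estimated counts in all, or 10.7% of the gene's TPM. The 250 bases before each start are shown because they differ in a motif. Capitals mark ACATGT, letters found at the core of many p53 sites, which reads the same on both strands. It occurred 2 times before the upstream start, 49 and 39 bases from it, and not in the window of the downstream start, which says only that these letters are not there. Of 32851 RefSeq windows of this length (GRCm38.p6), 4.58% hold ACATGT and 0.247% hold it 2 or more times. The windows are chr17:29090729-29090978 and chr17:29093519-29093768.
Cdkn1a upstream start: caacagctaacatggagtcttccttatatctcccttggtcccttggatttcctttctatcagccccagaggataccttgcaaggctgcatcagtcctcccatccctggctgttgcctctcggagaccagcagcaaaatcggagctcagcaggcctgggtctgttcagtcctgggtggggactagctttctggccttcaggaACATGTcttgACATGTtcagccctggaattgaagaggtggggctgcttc
Cdkn1a downstream start: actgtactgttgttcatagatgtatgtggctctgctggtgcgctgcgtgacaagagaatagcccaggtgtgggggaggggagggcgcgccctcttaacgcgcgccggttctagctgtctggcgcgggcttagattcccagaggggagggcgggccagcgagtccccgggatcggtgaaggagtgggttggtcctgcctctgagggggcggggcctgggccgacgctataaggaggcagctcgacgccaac

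Other genes known as p53 targets were present, with 7 of 9 detected and a median of 7.97 TPM over all 9. The median of protein-coding genes was 7.63 TPM, taken over detected genes only. Ccng1, a cyclin G, had 186 TPM in library 1 and 179 TPM in library 2. Sesn1, a stress-induced regulator of mTORC1, had 27.94 and 27.91 TPM in libraries 1 and 2. Mdm2, the ubiquitin ligase of p53, had 17.55 TPM in library 1 and 18.33 TPM in library 2, and Sesn2 was the lowest by mean at 0.91 TPM in library 1 and 1.09 TPM in library 2. The count ratio of library 1 over library 2 was 1.63 for Cdkn1a, 1.03 for Ccng1 and 0.910 for Mdm2. Of the 9 genes, 4 had the higher TPM in library 1 and 5 in library 2. The count interval lay above a ratio of 1 for 1 of them and below it for 2. A part of p53 in the difference of Cdkn1a between the libraries was not tested.

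Of the 5 other inhibitor genes, 3 were detected. Cdkn1c (p57), of the same family as Cdkn1a and Cdkn1b, had 14.2 TPM in library 1 and 10.2 TPM in library 2, a range that spans the values of Cdkn1b. Among the INK4 inhibitors, which bind Cdk4 and Cdk6, Cdkn2d had 5.64 TPM in library 1 and 5.06 TPM in library 2, and Cdkn2c 4.11 TPM in library 1 and 4.55 TPM in library 2. Cdkn2b had 0.21 TPM in library 1 and 0.20 TPM in library 2. Cdkn2a, often used as a marker of senescence, had 0.04 TPM in library 1 and 0.08 TPM in library 2.

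Of 8 genes that control the turnover of cyclins and inhibitors, 7 were detected, with a median of 9.35 TPM. Skp2, the F-box protein that marks Cdkn1b for degradation, was the exception at 0.09 TPM in library 1 and 0.27 TPM in library 2. Its partners in the ligase were far higher, with 83.8 TPM in library 1 and 85.5 TPM in library 2 for Skp1a and 21.3 TPM in library 1 and 23.35 TPM in library 2 for Cul1. Rnf123, a subunit of another ligase for Cdkn1b, had 36.25 TPM in library 1 and 35.9 TPM in library 2.

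Of the pocket proteins, Rbl2 had 13.17 TPM in library 1 and 11.78 TPM in library 2, at the percentile 77.3, and Rb1 had 6.20 TPM in library 1 and 6.39 TPM in library 2, at the percentile 62.9. Rbl2 was 1.98 ± 0.198 times Rb1 (SD, n = 2), without overlap. In the second quantification this ratio was 1.34, since Rb1 had 9.89 TPM in library 1 and 8.59 TPM in library 2 there. That difference went with 1 short entry: Rb1-203, of 324 bases and annotated for nonsense-mediated decay, held 3.07% of Rb1 TPM by the first quantification and 32.8% by the second, with 0 bases outside the coding transcript. In the second, that share rested on 17.8 estimated counts in library 1 and 9.87 in library 2, a mean of 1.53% of the gene's counts. By coding transcripts alone the ratio of Rbl2 to Rb1 was 1.96 by the first quantification and 2.01 by the second.

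Rbl2 (chr8:91070057-91123844, plus strand) shares 693 exon bases with Aktip on the other strand, which had 20.9 TPM in library 1 and 21.1 TPM in library 2. Rb1 (chr14:73183673-73325822, minus strand) shares 488 exon bases with Rcbtb2, likewise on the other strand. The coding sequences of Rb1 and Rbl2 were identical at 62.7% of aligned bases, with a longest shared run of 12. The third pocket protein gene, Rbl1 (p107), named after its values were seen, had 0.37 TPM in library 1 and 0.60 TPM in library 2.

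Among 11 genes of the E2F, DP and other pocket list, 5 were detected and the median was 0.86 TPM. The DP partner Tfdp2 had 30.55 TPM in library 1 and 27.4 TPM in library 2, and the repressor E2f6 had 28.3 TPM in library 1 and 29.3 TPM in library 2. Tfdp1 had 12.3 TPM in library 1 and 13.1 TPM in library 2, and E2f4, the E2F of the DREAM complex, 6.70 TPM in library 1 and 6.65 TPM in library 2. The lowest by mean, the activator E2f2, had 0.15 TPM in library 1 and 0.11 TPM in library 2. Of 7 MuvB and B-Myb genes 4 were detected. They were led by the histone-binding subunit Rbbp4 with 22.3 TPM in library 1 and 20.4 TPM in library 2, followed by the MuvB subunits Lin37 (4.57 TPM in library 1, 4.08 TPM in library 2) and Lin52 (3.95 TPM in library 1, 4.15 TPM in library 2). Foxm1, a mitotic activator, had 0.11 TPM in library 1 and 0.14 TPM in library 2.

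Of 8 G1 kinase and cyclin E genes, 6 were detected with a median of 5.31 TPM. Cdc37, the chaperone partner that loads Cdk4 onto Hsp90, had 53.6 TPM in library 1 and 57.8 TPM in library 2. Ccnh (9.31 TPM in library 1, 13.29 TPM in library 2) and Cdk7 (7.88 TPM in library 1, 7.80 TPM in library 2) form the kinase that activates Cdk4 and Cdk2. The lowest by mean was Ccne1, at 0.59 TPM in library 1 and 0.89 TPM in library 2. Cdk6, the alternative partner of D cyclins, was named after its values were seen and had 1.87 TPM in library 1 and 2.81 TPM in library 2. Both values were below every reading of Cdk4 given above. The single transcript Cdk4-201 had 1.71 TPM in library 1 and 1.58 TPM in library 2, below Cdk6. In the second quantification Cdk4-201 had 3.46 and 3.28 TPM, above Cdk6 at 1.49 and 2.13 TPM. Cdk6 had 422 expected counts in library 1 and 514 in library 2, against 541 and 565 for Cdk4. Its counts over 1 length were not calculated.

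Meis1 (chr11:18879817-19018985, minus strand) had 10.15 TPM in library 1 and 9.37 TPM in library 2, a mean of 9.76 ± 0.552 TPM (SD, n = 2), at the percentile 72.5. Its coding transcripts alone had 3.18 TPM in library 1 and 2.25 TPM in library 2, a range that overlaps that of Cdkn1a. Over the 3346 bases of Meis1-209, the transcript with the longest coding sequence, all counts gave 7.38 TPM in library 1 and 6.55 TPM in library 2. Meis1-209 itself had 0.06 TPM in library 1 and 0 TPM in library 2, and 0 TPM in both by the second quantification. The leading transcript by TPM was Meis1-203 in 3 of the 4 tables of libraries and quantifications, and the coding Meis1-201 in library 1 of the second. Meis1 was the 1 member without a common leader.

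Of 8 genes of the MEIS, PBX and HOX list, 7 were detected, with a median of 2.92 TPM. The paralog Meis2 had 9.05 TPM in library 1 and 7.56 TPM in library 2. Its order against Meis1 depended on the reading: it was below Meis1 in both libraries by gene TPM, above it in the second quantification (11.2 TPM in library 1 and 9.73 TPM in library 2) and above it by coding transcripts (6.82 TPM in library 1 and 5.84 TPM in library 2). The coding sequence of Meis2 was identical to that of Meis1 at 77.3% of aligned bases with a longest run of 23. Pbx2, a binding partner of Meis proteins, had 6.56 TPM in library 1 and 5.40 TPM in library 2. Hoxb13, which acts with Meis1 in mouse cardiomyocytes after birth, was listed at 0 in both libraries.

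Mki67, which encodes the Ki-67 protein of cycling cells, had 0.31 TPM in library 1 and 0.37 TPM in library 2, at the percentile 23.9. This rested on 104 expected counts in library 1 (exact interval 84.98 to 126.0) and 115 in library 2 (94.9 to 138.0), spread over a transcript of 10061 bases. The mean of Cdkn1a, the next member up, was 3.51 TPM.

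The window before the Mki67 start (chr7:135716380-135716629, minus strand) is printed because it held more copies of 2 cell cycle promoter motifs than any other member window. Capitals mark TTTGAA, the core of the cell cycle homology region bound by MuvB complexes, at 116 and 98 bases before the start, and CCAAT, the NF-Y motif, at 188, 166 and 141 bases, the middle copy as ATTGG on the other strand. The motifs do not overlap. Both strands were searched, and TTTGAA reads TTCAAA on the other.
Mki67: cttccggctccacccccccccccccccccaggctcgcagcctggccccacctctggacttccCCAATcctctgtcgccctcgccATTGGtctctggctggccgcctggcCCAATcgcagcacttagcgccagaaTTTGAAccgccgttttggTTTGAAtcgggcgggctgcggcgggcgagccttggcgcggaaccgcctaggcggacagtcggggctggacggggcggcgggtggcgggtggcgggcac

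Of all 32851 windows, 16.0% hold TTTGAA and 1.81% hold it 2 or more times, and 33.8% hold CCAAT. Among 9 member windows, of 7 of the 10 genes, TTTGAA was in 2, those of Mki67 and Rbl2, where it lies 201 bases before the start. CCAAT was in 4, those of Ccnd3 (downstream start), Cdkn1b, Meis1 and Mki67. Among 12 windows of mitosis genes 5 held TTTGAA and 10 held CCAAT, and among 12 windows of S phase genes 1 held TTTGAA and 9 held CCAAT.

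The low level of Mki67 was shared by the mitosis list, in which 1 of 14 genes was detected and the median was 0.22 TPM. The exception was Cenpf, a kinetochore-associated protein, with 4.55 TPM in library 1 and 2.19 TPM in library 2. The next were Anln, a cytokinesis scaffold (0.39 TPM in library 1, 0.60 TPM in library 2), and Cdc20, an activator of the anaphase-promoting complex (0.46 TPM in library 1, 0.48 TPM in library 2). The lowest by mean was cyclin B1, Ccnb1, with 0.09 TPM in library 1 and 0.13 TPM in library 2. The S phase list stood higher, with 8 of 12 detected and a median of 1.53 TPM. Its leaders were the replication clamp Pcna (10.5 TPM in library 1, 11.9 TPM in library 2), the ribonucleotide reductase subunit Rrm1 (3.38 TPM in library 1, 3.29 TPM in library 2) and the helicase subunit Mcm7 (2.33 TPM in library 1, 2.38 TPM in library 2). The licensing factor Cdc6 was lowest, with 0.07 TPM in library 1 and 0.24 TPM in library 2.

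**Figure D4:**
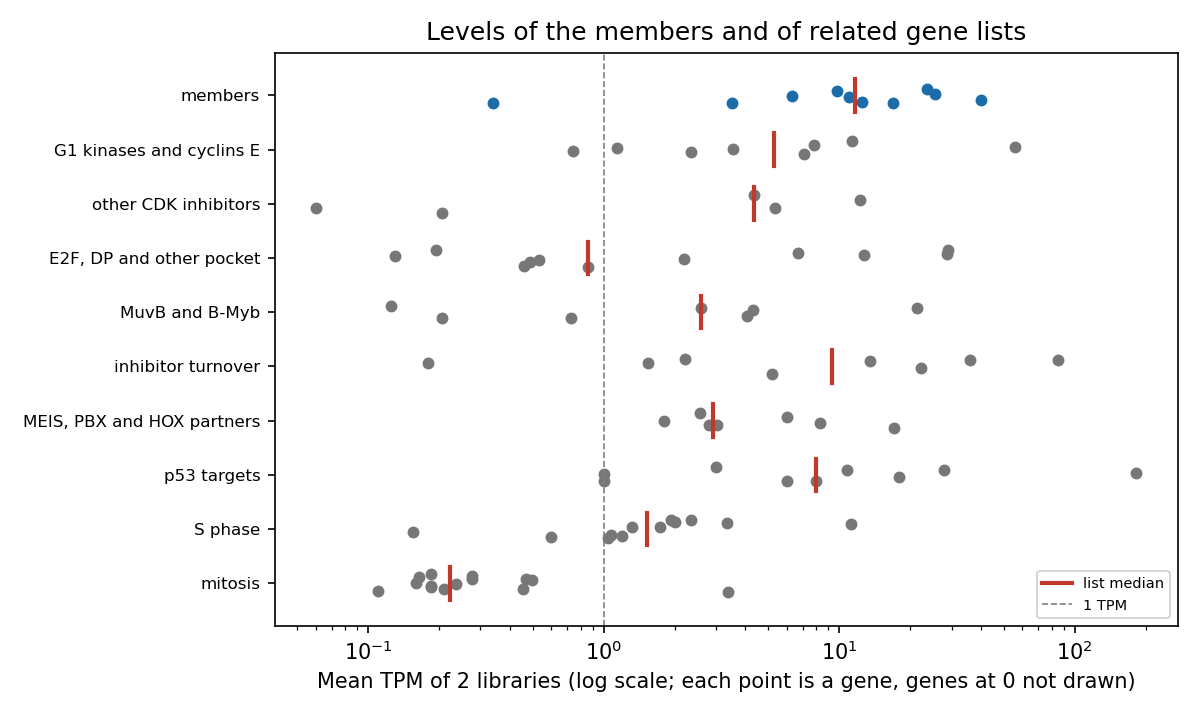
Mean TPM of 2 libraries (log axis) for each gene of the members and of 9 related lists, with list medians as red bars and 1 TPM as a dashed line. The members have a median of 11.7 TPM with Mki67 as the point at 0.34, and the mitosis list lies below 1 TPM except for Cenpf.

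Between the libraries, 0 of the 10 members passed a ratio of 1.5 in TPM + 1, either way, against 2.63% of 12032 genes with a mean of at least 1 TPM (1.24% higher in library 1, 1.39% higher in library 2). The pseudocount of 1 lowers the ratio of low genes, and Cdkn1a passed with a pseudocount of 0.1. By expected counts scaled by library totals, Cdkn1a was 1.63 times higher in library 1 than in library 2, with an exact 95% interval of 1.32 to 2.01. It was the 1 member past 1.5-fold by this measure, which 1.71% of 11491 protein-coding genes with at least 100 counts passed either way and 0.714% in this direction.

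The count interval left out a ratio of 1 for 4 of 10 members, against 22.5% of those 11491 genes (10.1% with a ratio above 1, 12.4% with a ratio below 1). Besides Cdkn1a, these were Ccnd1 at 0.822 (0.768 to 0.880) and Ccnd2 at 0.885 (0.850 to 0.921), lower in library 1, and Meis1 at 1.11 (1.004 to 1.24), higher in library 1. With spike-in scaling the interval left out 1 for 7 members, against 34.1% of genes. Meis1 was no longer among them, at 1.05 (0.9499 to 1.17), and the spike-ins shifted every log2 ratio by -0.08. For Cdk4 the interval was 0.791 to 1.005 by totals. The 6 members other than these 4 had ratios from 0.842 (Mki67) to 0.987 (Rbl2).

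**Figure D5:**
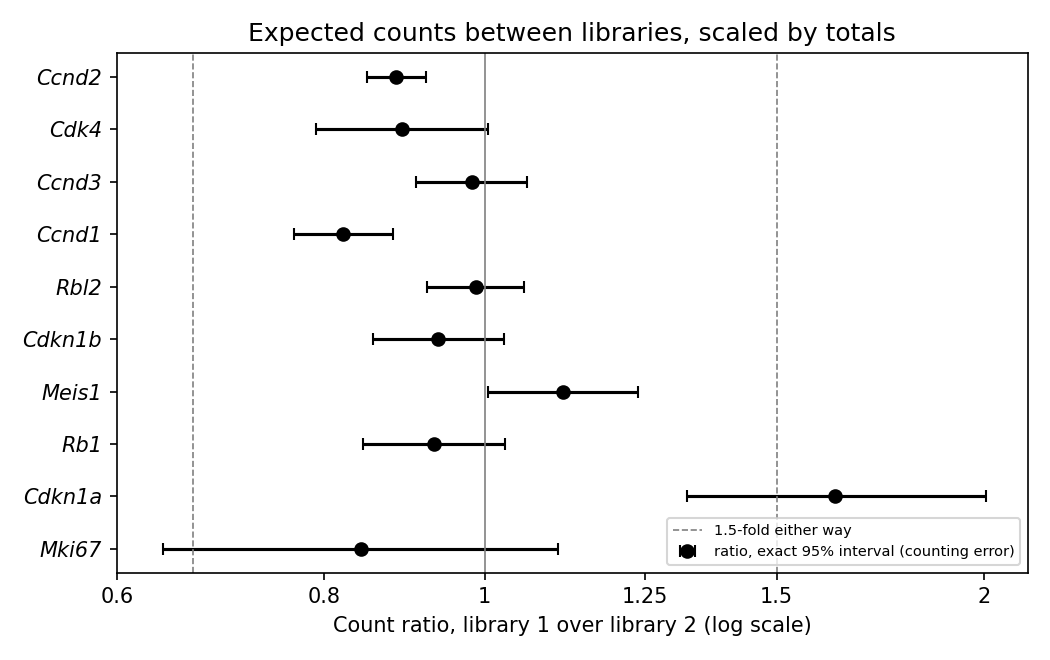
Ratio of expected counts, library 1 over library 2 (log axis), scaled by library totals, with exact 95% intervals for counting error, and dashed lines at 1.5-fold either way. Cdkn1a is the point beyond the dashed line, at 1.63, and Ccnd1 and Ccnd2 lie below 1 with intervals that do not reach it.

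Ccnd1 and Ccnd2 were higher in library 2, where the atrial markers Nppa (617 TPM in library 1, 842 TPM in library 2), Myl4 (263 TPM in library 1, 355 TPM in library 2) and Myl7 (251 TPM in library 1, 313 TPM in library 2) were higher too. The same holds for the adipocyte markers Cfd (4.04 TPM in library 1, 10.59 TPM in library 2), Plin1 (1.79 TPM in library 1, 8.21 TPM in library 2) and Ucp1 (0.90 TPM in library 1, 8.74 TPM in library 2). The part of these cell types in the member differences was not tested. All 7 endothelial markers were detected and 6 of them were higher in library 1, as Cdkn1a was, with summed levels of 435 TPM in library 1 and 440 TPM in library 2. The exception was Fabp4, at 253 TPM in library 1 and 272 TPM in library 2. Of the fibroblast markers 6 of 7 were higher in library 1 (summed 214 TPM in library 1 and 202 TPM in library 2), and of the mural markers 5 of 7 (summed 238 TPM in library 1 and 227 TPM in library 2), with all of both lists detected. The part of these cells in the level of Cdkn1a was not tested either.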

How the data were processed

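Total RNA of 2 heart libraries was sequenced with a directional kit after ribosomal reduction, and ERCC spike-ins were added, per the labels. The files use mm10 and GENCODE M21, per the deposited readme. Aligner, counter, versions and use of strand are not given in the sources used. Per the file headers, the deposited tables of the first quantification hold expected counts, TPM and FPKM, and those of the second hold estimated counts and TPM per transcript, which were summed per gene here.

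The 10 members and the gene lists were chosen with earlier results of these data known. With 1 group there was no test. Means carry the SD of 2 libraries. Rounded expected counts gave ratios with exact conditional binomial 95% intervals. The calculation was run on simulated Poisson counts, which hold no spread beyond counting. That run therefore says nothing of the wider spread between these libraries. For all counts over 1 length, length less 100 bases and a factor per library put the result on the TPM scale. The 50% limit on coding shares, start sites, motifs and the global alignment of coding sequences were chosen after seeing the data. The alignment replaced a planned comparison of proteins, which was not run. Named genes were all members, the 3 highest and the lowest of each pathway list, all other CDK inhibitors, genes of the E2F, MuvB and MEIS lists at 5 TPM or more, and the highest markers where they bear on a result. A gene that this rule names is not reported here. Promoter windows and start sites came from RefSeq (GRCm38.p6). Alternatives were the second quantification, each library alone, other scalings (TMM from edgeR 4.0.16, DESeq2 1.42.0 size factors, spike-ins), FPKM, pseudocounts and filters. R 4.3.3, Python 3.11.15, Biopython 1.88, scipy 1.17.1, pandas 2.3.3, numpy 2.4.6 and matplotlib 3.10.9 were used.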

Additional observations from a re-analysis of the deposited data

How the results depend on the processing

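The count of 9 detected members held at 0.5 and 2 TPM, in the second quantification and in each library alone. Nuclear protein-coding genes held 32.9% of TPM in each library. Rescaled over those genes, Mki67 had a mean of 1.04, close to the limit of 1, and the count was not redone on that scale. Without 1 of the libraries, Ccnd1 held 20.9% to 21.1% of D cyclin TPM, Ccnd2 47.5% to 51.6% and Ccnd3 27.4% to 31.4%, Cdkn1b to Cdkn1a was 2.53 to 4.05, Rbl2 to Rb1 was 1.84 to 2.12 and D cyclins to Cdk4 were 3.14 to 3.17. In the second quantification the Ccnd1 share was 19.5% and the Ccnd3 share 33.7%, Rbl2 to Rb1 was 1.34 and D cyclins to Cdk4 were 3.10. With coding transcripts alone the Ccnd1 share was 19.5% and D cyclins to Cdk4 were 10.4. By expected counts the shares were 21.6%, 61.2% and 17.2% for Ccnd1, Ccnd2 and Ccnd3, and by all counts over 1 length 23.8%, 39.5% and 36.7%, with D cyclins to Cdk4 at 6.81. Members past 1.5-fold between the libraries numbered 1 with a pseudocount of 0.1 and 1 by count ratio, Cdkn1a in both, against 0 in TPM + 1. The log2 ratio of library 1 over library 2 was 0.15 for Rbl2 in TPM + 1 and -0.01 in counts scaled by TMM, and 0.01 and -0.02 for Ccnd3. For Rb1 it was -0.04 in TPM + 1 and 0.18 in the second quantification. Beyond counting error, this ratio moved for 3 of 10 members by TMM, 5 of 10 by spike-ins and 2 of 10 in the second quantification. The cause of these moves was not tested beyond the lengths and transcripts given above. Levels moved beyond 1 SD for 10 of 10 members when TPM was rescaled over nuclear protein-coding genes and for 9 of 10 in FPKM, both of which change the scale. They also moved for 8 of 10 by all counts over 1 length, 6 of 10 with coding transcripts alone and 4 of 10 in the second quantification. No paired analysis was possible because the labels give a single group. With n = 2, an SD rests on a single difference, and depth limits Mki67 and Cdkn1a most.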

Other observations

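Genes of the Hippo pathway, which restrains heart growth through Yap1, were all detected: 11 of 11 had at least 1 TPM in both libraries, with a median of 7.97 TPM, beside 7.63 TPM over detected protein-coding genes. Tead1, the DNA-binding partner of Yap1, had 54.6 TPM in library 1 and 52.9 TPM in library 2, above each of the 10 cell cycle exit genes. Nf2, an upstream activator of the kinases, had 24.53 TPM in library 1 and 24.48 TPM in library 2. Yap1 itself had 23.8 TPM in library 1 and 21.7 TPM in library 2. The lowest was the kinase Stk3, with 2.71 TPM in library 1 and 2.73 TPM in library 2.

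Cenpf was the mitosis gene that stood apart, with a count ratio of library 1 over library 2 of 1.67 (exact 95% interval 1.51 to 1.84). In the second quantification it had 5.90 TPM in library 1 and 2.36 TPM in library 2. Top2a, a topoisomerase of mitosis in the same list, went the other way with a ratio of 0.479 (0.309 to 0.731) on 35 and 68 counts in libraries 1 and 2, and was named after its values were seen.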
